A study of Gallus gallus with 6 samples.

Results

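*WNT4*, *FZD1* and the candidates for *WIF1* were followed through 6 single small yellow follicles of the hen. These are 4 of the 17992 genes in the deposited table, and they were chosen by gene number: gene16295 is *WNT4*, gene3170 is *FZD1*, gene410 carries the KEGG entry of *WIF1*, and gene3236 is named as *WIF1* by similarity alone. All 4 were expressed at 1 FPKM or more in at least 3 follicles and were tested. FPKM counts the fragments of a gene per kilobase of its transcript, relative to the size of the library.

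RNA was sequenced from 6 follicles of 6 to 8 mm in diameter, with 1 library per follicle, taken from Jining Bairi hens aged 30 weeks. Each of 3 hens gave 2 follicles, by the study's methods: T1 and T4 for hen 1, T2 and T5 for hen 2, and T3 and T6 for hen 3. The hens had no treatment that the labels name, and the follicles of a hen were set apart by their level of *FSHR*, the receptor for follicle-stimulating hormone. The submitters labelled T1, T2 and T3 as the libraries with higher *FSHR* and T4, T5 and T6 as those with lower *FSHR*, which the data go against. The level of *FSHR* was 11.9 FPKM in T1 against 46.4 FPKM in T4, 13.1 FPKM in T2 against 18.9 FPKM in T5, and 13.9 FPKM in T3 against 27.8 FPKM in T6. Follicles are therefore called by their numbers, and every ratio sets T4 against T1, T5 against T2 and T6 against T3, with T1, T2 and T3 as divisors.

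Wnt ligands are secreted glycoproteins that bind Frizzled receptors at the surface of the receiving cell, where the signal either stabilises β-catenin or takes other routes. Secreted inhibitors such as WIF1 and the Frizzled-related proteins bind the ligand outside the cell. R-spondins raise the number of Frizzled receptors at the surface. In mammals *WNT4* is known for its part in the development of the female gonad, and in the mouse it is made by granulosa cells of the ovary. A whole follicle holds an oocyte, granulosa cells and a theca of fibroblasts, vessels, muscle and nerve, so fewer cells of a type and less RNA per cell cannot be told apart here.

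The primers of the study's qRT-PCR are shown because they say which transcripts were meant by each name. Those for *WNT4*, *FZD1* and *WIF1* were designed on chicken RefSeq transcripts whose gene identifiers are those of the KEGG entries of gene16295, gene3170 and gene410. The primers for *WIF1* therefore belong to gene410, and no primer pair was tied to gene3236.
WNT4 forward: cctgtctttggcaaggtgg
WNT4 reverse: cataggcaatgttatcggagc
FZD1 forward: cctgttcatcggcacctcat
FZD1 reverse: gctcttacagctctgcgtga
WIF1 forward: tcagtggttcaggttgggtt
WIF1 reverse: tcctggacactccgcttg

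The genes lie on separate stretches of the genome. *WNT4* (gene16295) is on chromosome 21 from 6300331 to 6314301 on the plus strand, with a transcript model of 3671 bases. *FZD1* (gene3170) is on chromosome 2 from 22261232 to 22263010 on the plus strand, and its model of 1779 bases is as long as the gene itself, so it has no intron in this annotation. *WIF1* (gene410) is on chromosome 1 from 33841799 to 33884662 on the minus strand, with a model of 2400 bases. The other candidate, gene3236, is on chromosome 2 from 26752974 to 26762991 on the plus strand and has a short model of 636 bases. Its description is that of an autocrine factor of Schwann cells with EGF-like repeats, and only a frog protein found by similarity gives it the name *WIF1*. Positions are as deposited, and the sources used here are in conflict on their build.

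The libraries were of similar depth, at 12554918 to 13933214 fragments on genes. T4 stood apart: its Spearman correlation with the other follicles over all genes was 0.932 to 0.963, against 0.965 to 0.981 among the others. T4 also held the most RNA of granulosa markers and the least of stromal ones. The summed level of *FSHR*, *INHA* and *ZP3* was 12488 FPKM in T4 and 2007 to 5522 FPKM elsewhere. For the 5 stromal genes *COL3A1*, *COL1A2*, *COL6A3*, *LUM* and *PDGFRA* the sum was 949 FPKM in T4 and 3717 to 6369 FPKM elsewhere. No marker was at 0 in any follicle. The markers were tied to gene numbers by the study's lists of genes that differed in hen 1. That choice favours a large difference between T4 and T1, so their levels in T4 are no independent evidence of cell composition. *FSHR* is also the gene by which the follicles were set apart. In hen 1, 5.38% of 12688 genes were at least 2-fold higher in T4 than in T1 and 13.3% at least 2-fold lower. In hen 2 the shares were 1.46% and 3.31% of 12585 genes, and in hen 3 they were 2.61% and 4.41% of 12706 genes. The median log2 ratio of all genes was near 0 in each hen, at 0.010, -0.020 and 0.013. Within a hen 1 follicle stands against 1, so these ratios have no replicate check and no test.

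**Figure D1:**
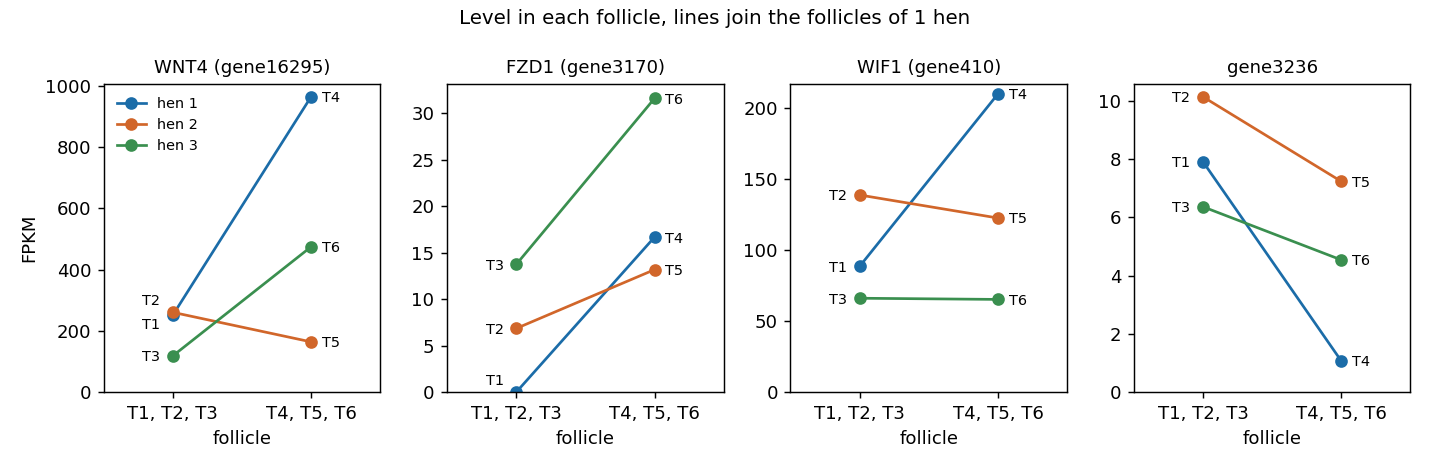
Level of each gene in FPKM (vertical axis, from 0) in the 6 follicles, with lines that join both follicles of 1 hen. *FZD1* is higher and gene3236 lower at the right end of all 3 lines, while the line of *WNT4* in hen 2 goes from 261 down to 164 FPKM.

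*WNT4*, the ligand, was among the most abundant transcripts and differed between hens in direction. It was at 252 FPKM in T1, 261 FPKM in T2, 119 FPKM in T3, 965 FPKM in T4, 164 FPKM in T5 and 475 FPKM in T6. T4 and T6 were above all other follicles, while T5 was below T1 and T2, so the groups overlap. In T4 it was the transcript of rank 102 by FPKM, and in T3 it had rank 932, its lowest. The log2 ratio of FPKM + 0.5 was 1.93 in hen 1, -0.67 in hen 2 and 1.99 in hen 3. These differences are far beyond counting error. On the normalized count, the ratio was 4.36 in hen 1 (exact 95% interval 4.23 to 4.49), 0.655 in hen 2 (0.628 to 0.684) and 4.32 in hen 3 (4.14 to 4.52). Such intervals cover the counting of fragments only, not the difference between follicles.

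Over the 3 hens the mean log2 ratio of *WNT4* was 1.09 with a standard error of 0.55 from limma, higher in 2 of 3 hens. The test across the table did not call it, with an adjusted p of 0.774 from limma and an unadjusted p of 0.0997. In that test 0 of 12381 genes passed (0.0%), although 708 genes (5.72%) had an unadjusted p under 0.05. Leaving out hen 2, the hen of opposite direction, gave a mean of 1.96 and an adjusted p of 0.456 (limma), and leaving out hen 1 or hen 3 lowered the mean to 0.66 or 0.63. The nearest measured gene, gene16296, at a distance of 21513 bases, had log2 ratios of 0.02, 0.02 and 0.21.

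The high level of *WNT4* in T4 went with high levels of granulosa markers and of *NR5A1*, a transcription factor of steroid-producing cells. *NR5A1* was at 90.5, 61.0, 57.7, 266, 65.7 and 142 FPKM in T1 to T6, so that T4 and T6 led for this gene as they did for *WNT4*. In T5, where *WNT4* was at 164 FPKM, the summed granulosa level of 5522 FPKM was second to that of T4. Of this sum, 5207 FPKM was *ZP3*. For *INHA* and *FSHR* the second follicle was T6. *INHA* was at 794 FPKM in T6 against 296 FPKM in T5, and *FSHR* at 27.8 FPKM against 18.9 FPKM. The part of cell composition in the level of *WNT4* was not tested.

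*FZD1*, a Frizzled receptor, had the higher level of each hen in T4, T5 and T6, and was nearly absent from T1. It was listed at 0.00897 FPKM in T1 and was at 6.85 FPKM in T2, 13.7 FPKM in T3, 16.7 FPKM in T4, 13.2 FPKM in T5 and 31.6 FPKM in T6. T5 lay just below T3, so the groups overlap. The value in T1 stands for 0.227 estimated fragments, where a count of 0 allows up to 3.69 (Poisson, 95%). With the T1 value taken as a count of 0, the exact 95% interval of T4 over T1 on the normalized count had a lower limit of 114. That limit covers counting error only, not how the authors divided fragments among genes. In hens 2 and 3, where both follicles had counts, the ratio of normalized counts was 1.92 (exact 95% interval 1.58 to 2.33) and 2.28 (2.0 to 2.60). The study's own qRT-PCR of *FZD1*, whose values are not reported here, did not show rises of this size in any hen.

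In hens 1, 2 and 3 *FZD1* had log2 ratios of 5.08, 0.89 and 1.17, the first of which depends on the 0.5 FPKM that was added. Their mean was 2.38 (standard error 0.83, limma; higher in 3 of 3 hens), with an unadjusted p of 0.0304 and an adjusted p of 0.774. With hen 1 left out the mean was 1.03, and the adjusted p from limma was 0.000118, where 466 of all genes (3.76%) passed. With the robust option of the spread estimate switched off it was 0.0355, and with the trend off as well it was 0.133. These last settings were added after the data were seen. Only 2 hens enter this fit, so the call rests on a spread that is largely taken from other genes.

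The low value of *FZD1* in T1 was unusual. Of 8104 genes at 5 FPKM or more in each of the other 5 follicles, *FZD1* was the only gene at 0.05 FPKM or less in T1. The same count was 1 gene in each of T2, T4, T5 and T6 and 0 in T3, so T1 did not stand out by number. Like *FZD1*, the gene of T5 and that of T6 had no intron in this annotation, unlike those of T2 and T4. The share of genes without an intron among all genes was not counted, so no link with the low values can be read from this. The nearest measured gene, gene3168, at 33901 bases, was at 8.60 FPKM in T1 and at 3.15 to 8.17 FPKM elsewhere, with its lowest value in T4. Its level shows no such gap in T1.

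A second Frizzled receptor, *FZD7*, also read from 1 block without an intron, had gaps in other follicles. *FZD7* (gene9882) was at 4.47 FPKM in T1, 0.010 FPKM in T2, 4.85 FPKM in T3, 0.407 FPKM in T4, 0 FPKM in T5 and 6.69 FPKM in T6. It was thus present in the follicle where *FZD1* was nearly absent, and at or near 0 in both follicles of hen 2. Of the fragments given to either receptor, the share of *FZD1* was 0.210% in T1 and 97.7% in T4. It was 99.9% in T2 and 100% in T5, and in hen 3, where both receptors were present, 74.8% (T3) and 83.2% (T6). The sum of both was 4.48 FPKM in T1 against 17.1 FPKM in T4, 6.86 FPKM in T2 against 13.2 FPKM in T5, and 18.6 FPKM in T3 against 38.3 FPKM in T6. In hens 1, 2 and 3 its log2 ratios were 1.82, 0.89 and 1.02. The sum was formed after the values were seen.

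The estimated fragments of *FZD1* were not whole numbers (within 0.05) in any of the 6 follicles, whereas those of *WIF1* and of gene3236 were whole in 6 of 6 and those of *WNT4* in 5 of 6. Fractions can arise where a fragment is divided among features that share sequence. Those of *FZD7* were whole in 2 of 6. The fragments of both receptors together were not whole in any follicle either. In T5 *FZD1* had 305.5 estimated fragments where *FZD7* had 0. Frizzled receptors are paralogs, and the sources used here do not say how the authors divided shared fragments or among which genes, so the value of *FZD1* in T1 is uncertain. Whether such a division has a part in the fractions or in the gap was not tested.

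**Figure D2:**
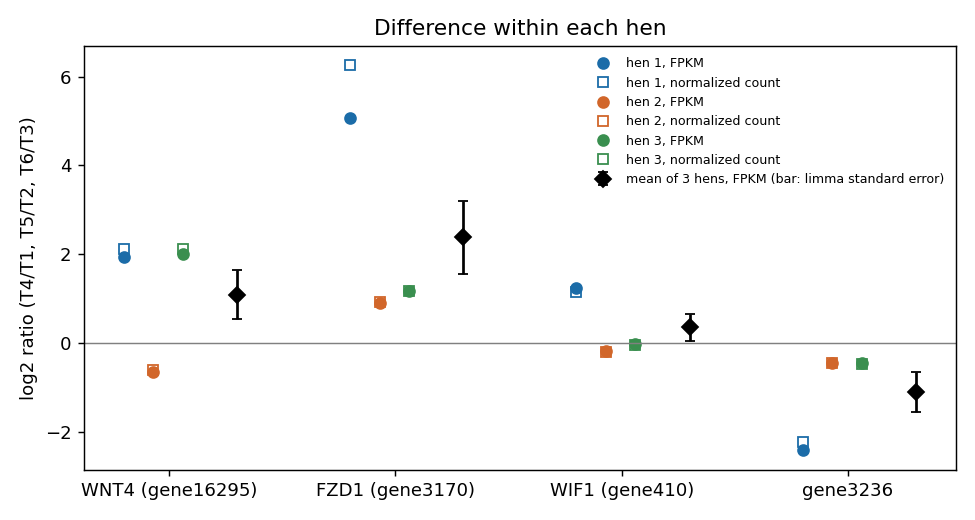
Log2 ratio within each hen (vertical axis) from FPKM with 0.5 added (filled circles) and from the normalized count with 5 added (open squares), with the mean over hens and its standard error from limma (diamonds). The signs are the same on both scales, and the ratio of *FZD1* in hen 1 has the widest gap between them, since it depends on the added value.

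*WIF1* (gene410), a secreted protein that binds Wnt ligands, was clearly higher in T4 than in T1, while the follicles of the other hens were close to each other. Its level was 88.7 FPKM in T1, 139 FPKM in T2, 66.2 FPKM in T3, 210 FPKM in T4, 123 FPKM in T5 and 65.4 FPKM in T6. T4 was the highest follicle, but both follicles of hen 2 were above T1 and both of hen 3 below it, and the groups overlap. The log2 ratios were 1.24, -0.18 and -0.02 in hens 1, 2 and 3. On the normalized count the ratio was 2.23 in hen 1 (exact 95% interval 2.11 to 2.35) and 0.865 in hen 2 (0.821 to 0.913). In hen 3 it was 0.974, with an interval of 0.903 to 1.05 that includes no difference.

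The mean log2 ratio of *WIF1* was 0.35 (standard error 0.31, limma; higher in 1 of 3 hens), with an adjusted p of 0.798. Without hen 1 it was -0.10, so the sign of the mean rests on that hen. T4, which carries the high value, is the library that stood apart from the others. The neighbour gene411, at 13428 bases, had log2 ratios of 0.64, -0.10 and -0.05, and it too was highest in T4, at 27.0 FPKM.

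The inhibitor and the ligand did not keep a fixed proportion. The FPKM of *WIF1* over that of *WNT4* was 0.352 in T1 and 0.218 in T4 of hen 1. It was 0.533 (T2) and 0.747 (T5) in hen 2, and 0.557 (T3) and 0.138 (T6) in hen 3. By FPKM the ligand was thus the more abundant transcript in every follicle, most of all in T4 and T6. This order between genes depends on how their lengths were weighted. In T5 the normalized count was 3565 on a model of 3671 bases for *WNT4* and 2589 on 2400 bases for *WIF1*. Per base of model, *WIF1* was then the higher in T5. Within hens the log2 change of the FPKM ratio of *WIF1* to *WNT4* was -0.69, 0.49 and -2.02, lower in hens 1 and 3 and higher in hen 2. Its direction was opposite to that of *WNT4* in each hen, and *WNT4* is the divisor.

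The other candidate, gene3236, was lower in the second follicle of each hen, and so went against *WIF1* in hen 1. It was at 7.91 FPKM in T1, 10.1 FPKM in T2, 6.37 FPKM in T3, 1.07 FPKM in T4, 7.24 FPKM in T5 and 4.54 FPKM in T6. T5 was above T3, so the groups overlap, and T4 stood below all others. These levels rest on few estimated fragments, 56 and 7 in hen 1 (T1 and T4), 69 and 47 in hen 2, and 44 and 29 in hen 3. At this depth only hen 1 differed beyond counting error: the ratio was 0.136 in hen 1 (exact 95% interval 0.052 to 0.299), 0.707 in hen 2 (0.478 to 1.04) and 0.691 in hen 3 (0.417 to 1.13).

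The log2 ratios of gene3236 were -2.42, -0.46 and -0.45. Their mean was -1.11 (standard error 0.44, limma; lower in 3 of 3 hens), with an unadjusted p of 0.0496 and an adjusted p of 0.774. The mean was -0.45 when hen 1 was left out (adjusted p = 0.435, limma). *SOX10*, a marker of Schwann cells, was at 2.99 FPKM in T1, 5.40 FPKM in T2, 4.49 FPKM in T3, 0.366 FPKM in T4, 3.79 FPKM in T5 and 3.50 FPKM in T6. Like gene3236, it was highest in T2 and lowest in T4, and it was lower in T5 than in T2 and in T6 than in T3. *SOX10* too was named from the lists of hen 1, which favours a large difference between T4 and T1. The part of nerve or stroma in the level of gene3236 was not tested.

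The candidates for *WIF1* thus behaved differently across the same libraries. The FPKM of gene410 was 10.4 to 17.0 times that of gene3236 in T1, T2, T3, T5 and T6, and 196 times in T4. Their log2 levels correlated at r = -0.49 over the 6 follicles and at r = 0.82 over the 5 follicles without T4, so the sign rests on T4. Pairs of follicles share a hen, and these values are a description only. Which candidate is meant by the name *WIF1* therefore decides the direction in hen 1, where 1 was at 2.23 times and the other at 0.136 times the level of T1.

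**Figure D3:**
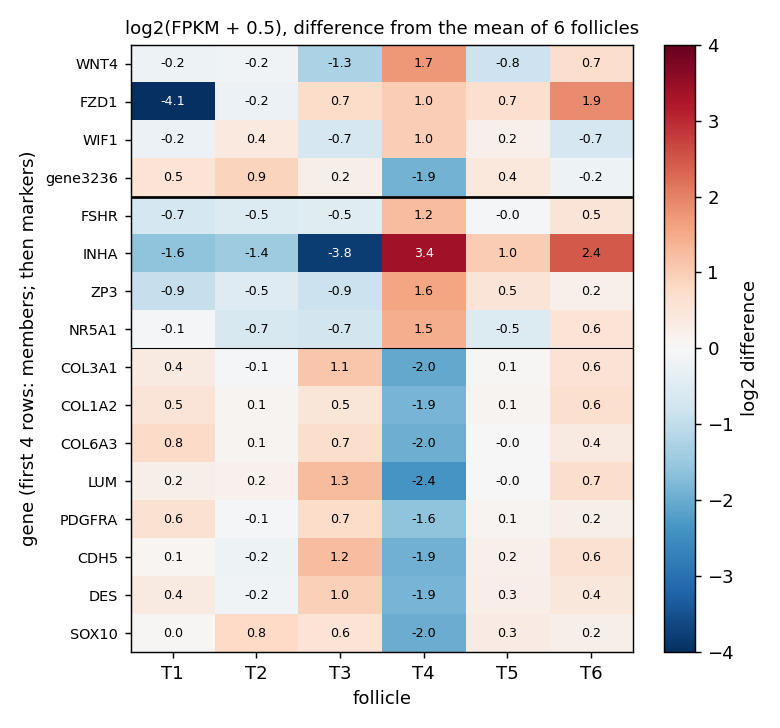
Difference of log2(FPKM + 0.5) from the mean of the 6 follicles (colour and printed value), for the 4 genes described (first rows) and 12 cell type markers. In T4, *WNT4*, *FZD1* and *WIF1* are above their means as are *FSHR*, *INHA*, *ZP3* and *NR5A1*. There gene3236 is below its mean, as are the markers of stroma, endothelium, muscle and Schwann cells. All markers were named from lists of genes that differed in hen 1, which favours a large difference between T4 and T1. *FZD1* is highest in T6 and also above its mean in T3 and T5, since its low value in T1 lowers that mean.

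T4 also had the lowest level of *CDH5*, an endothelial cadherin, at 3.61 FPKM against 13.1 to 36.0 FPKM elsewhere, and of *DES*, the desmin of muscle, at 54.8 FPKM against 181 to 393 FPKM. Both were named from the lists of hen 1, which favours such a difference. With T4 left out, the remaining follicles spanned 119 to 475 FPKM for *WNT4*, 65.4 to 139 FPKM for *WIF1* and 4.54 to 10.1 FPKM for gene3236. Across the 6 follicles, the log2 level of *WNT4* correlated with that of *FSHR* at r = 0.83, and at r = 0.53 without T4. For *FZD1* these values were 0.61 and 0.73, for *WIF1* 0.46 and -0.34, and for gene3236 -0.93 and -0.80. The sign held without T4 for *WNT4*, *FZD1* and gene3236, and turned for *WIF1*. Follicles share hens and were set apart by *FSHR* itself, and r with *FSHR* was not taken over all genes. These values are therefore a description only.

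The other Wnt genes were taken from a list of 15, the 4 described here included, that were tied to gene numbers by the study's lists of genes that differed in hen 1. The direction and size of their ratios in hen 1 are therefore no independent evidence, whereas the other hens played no role in the choice. The list is also not the whole pathway, and it holds some genes of other pathways that meet it. Names were tied to 296 gene numbers only, and genes higher in T4 could be read more fully than those lower. The number of higher against lower genes in hen 1 therefore says nothing of the pathway as a whole. In hen 1, 6 of the other 11 genes were at least 2-fold higher in T4, 4 were at least 2-fold lower and 1 lay between, with a median log2 ratio of 1.17, where 5.38% of all genes were higher by that fold and 13.3% lower. In hen 2, 2 were at least 2-fold higher (1.46% of all genes), 0 lower (3.31%) and 9 between, with a median of 0.12. In hen 3, 1 was higher (2.61%), 1 lower (4.41%) and 9 between, with a median of 0.40. Over the 3 hens none of the 11 passed the limma test, as 0 of all 12381 genes did. Without hen 1, where 466 of all genes (3.76%) passed on 2 hens, *SULF1* and *RSPO3* were among them. *RSPO3* no longer passed with the robust option off.

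**Figure D4:**
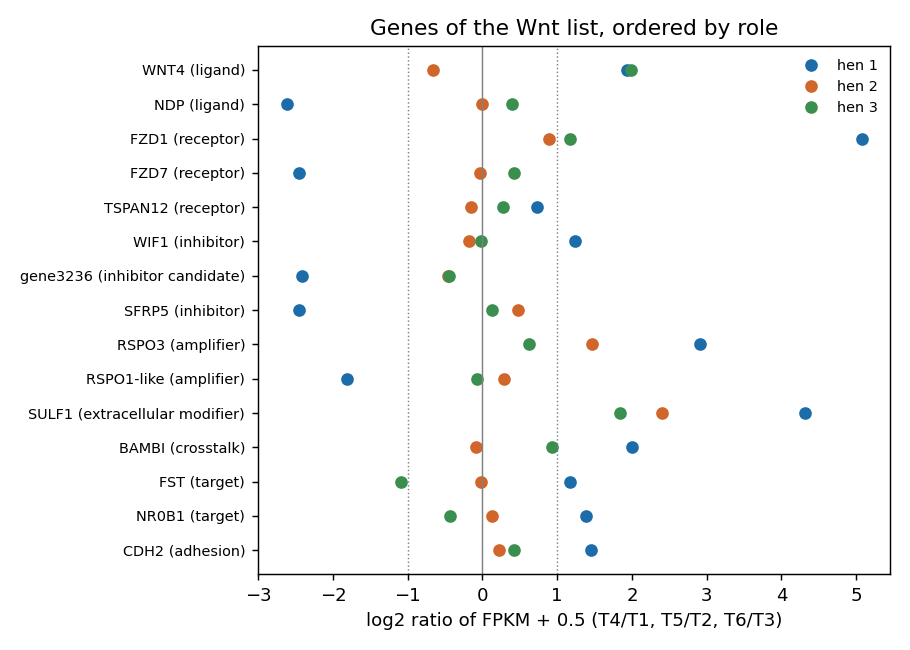
Log2 ratio of FPKM + 0.5 in each hen (horizontal axis, dotted lines at 2-fold) for the 15 genes of the Wnt list, ordered by role. The points of hen 1 lie farthest from 0 for most genes, which the choice of the list on hen 1 favours. Those of *SULF1* lie above 1 in all 3 hens.

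Among ligands and receptors, *NDP*, which encodes norrin, a ligand of FZD4 in mammals, had log2 ratios of -2.62, -0.01 and 0.40, unlike *WNT4*. *TSPAN12*, a tetraspanin that assists FZD4 in mammals, had 0.72, -0.16 and 0.27, and *FZD7* had -2.45, -0.03 and 0.42. *SFRP5*, a secreted Frizzled-related inhibitor, had -2.46, 0.48 and 0.12. In hen 1 it was therefore on the side of gene3236, and opposite to *WIF1*.

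Of the genes that act on the ligand or receptor from outside, *SULF1* and *RSPO3* were higher in 3 of 3 hens. *SULF1*, a heparan sulfatase that frees Wnt ligands from the cell surface in vertebrates, was at 1.66 FPKM in T1, 1.10 FPKM in T2, 4.79 FPKM in T3, 42.5 FPKM in T4, 7.99 FPKM in T5 and 18.5 FPKM in T6. Its groups did not overlap, and those of the markers *FSHR*, *INHA* and *ZP3* did not overlap either. The shares of all genes without overlap and of all genes higher in 3 of 3 hens were not counted. Both traits are therefore a description and set *SULF1* and *RSPO3* apart from no other gene. In hens 1, 2 and 3 the log2 ratios of *SULF1* were 4.32, 2.41 and 1.85. Their mean was 2.86 (limma, standard error 0.49, unadjusted p = 0.00139, adjusted p = 0.774). *RSPO3*, an R-spondin, had 2.91, 1.46 and 0.63 (limma, unadjusted p = 0.0115, adjusted p = 0.774). With hen 1 left out, *SULF1* had a mean of 2.13 and an adjusted p from limma of 8.2e-13, or 0.00134 without the robust option and 0.0476 without trend as well. The same values of *RSPO3* were a mean of 1.05 and adjusted p-values of 0.00958, 0.0977 and 0.182 (limma), so it passed in the first setting only. A second R-spondin gene, described as *RSPO1*-like, had -1.81, 0.29 and -0.07.

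The genes at the end of the list had the direction of *WNT4* in hen 1, and differed from each other in the other hens. *FST*, which encodes follistatin and lies downstream of *Wnt4* in the mouse ovary, had log2 ratios of 1.17, -0.02 and -1.09, so that it was lower in T6 than in T3, where *WNT4* was higher. *NR0B1*, which encodes the nuclear receptor DAX1 and is downstream of *Wnt4* in mouse, had 1.39, 0.12 and -0.43. *BAMBI*, a pseudoreceptor of TGF-β and BMP signals, had 2.0, -0.09 and 0.93. *CDH2*, an N-cadherin that binds β-catenin, had 1.46, 0.22 and 0.43, higher in 3 of 3 hens. On the list, *BAMBI* had the sign of *WNT4* in each hen on both scales. In hen 2 its log2 ratio was near 0, at -0.09 on FPKM and -0.06 on the normalized count. *TSPAN12* had the sign of *WNT4* on FPKM only, since on the normalized count its log2 ratio in hen 2 was 0.45. The share of all genes with these signs was not counted.

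For each of the 4 genes, the 3 most similar of 270 named genes were taken by Pearson r of log2(FPKM + 0.5) over the 6 follicles. These names come from the same lists of hen 1, and r over so few follicles, which share hens, is a description. As the genes were chosen by likeness, a high or low follicle that they share with the member is no separate evidence. *WNT4* was most like *LARGE2*, a glycosyltransferase (r = 0.98, and 0.97 without T4), *MAPK8IP1*, a scaffold of the JNK pathway (0.98 and 0.94), and *FURIN*, a proprotein convertase (0.97 and 0.99). The order of the follicles by *LARGE2* was exactly that by *WNT4*. Among all 12380 other genes tested, 16 were as like *WNT4* as *LARGE2* was, or more.

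*FZD1* was most like *SOCS1*, a suppressor of cytokine signals (r = 0.94, and 0.98 without T4), *RLN3*, a relaxin family peptide (0.92 and 0.95), and *CTSC*, cathepsin C (0.91 and 0.91). Each of these had its lowest level in T1, which a choice by r with *FZD1* favours. *RLN3* was at 40.6 FPKM in T1, 208 FPKM in T2, 553 FPKM in T3, 2162 FPKM in T4, 1154 FPKM in T5 and 1351 FPKM in T6. *SOCS1* was at 1.18 FPKM in T1 and 3.31 to 7.94 FPKM elsewhere, so T1 was low in these genes but not near 0.

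*WIF1* was most like *NOG*, which encodes noggin, a secreted antagonist of BMP (r = 0.96, and 0.94 without T4), *SLC26A7*, an anion exchanger (0.95 and 0.92), and *KLHL41*, a kelch protein (0.93 and 0.85). *NOG* was at 17.6 FPKM in T1, 23.5 FPKM in T2, 11.2 FPKM in T3, 60.8 FPKM in T4, 26.8 FPKM in T5 and 13.9 FPKM in T6. As with *WIF1*, hen 3 gave low levels in both of its follicles. The genes most like gene3236 were *SLC7A10*, an amino acid transporter (0.98 and 0.86), *SLIT1*, a guidance ligand of axons (0.97 and 0.76), and *APLNR*, the apelin receptor (0.96 and 0.58). Each was lowest in T4, which a choice by r with gene3236 favours, and the likeness of *APLNR* fell the most without T4. No gene was among the 3 most similar of more than 1 of the 4.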

How the data were processed

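A single deposited table covers the 6 follicles. For every gene the authors gave FPKM, computed from mapped fragments (the submitters' notes name Bowtie 0.12.2 and Cufflinks), and a normalized count. That deposited signal is an estimated fragment number over a size factor of the library. Between 90.8% and 91.7% of the low values in a library were whole steps (within 0.02), and the step gives the depth. As the others were fractional, count models were left out. FPKM of genes with several transcripts depends on how the authors weighted them: for *WNT4*, the normalized count per FPKM and kilobase of model ranged from 5.55 to 6.32, so its ratios differ between the scales. Left unused was 1 column of values with no sample name. The sources used here give no batch or date, and they name both Gallus_gallus-5.0 and mm8 as builds. Chromosomes are those of at least 80% of the named genes of a sequence in RefSeq's chicken table (GRCg7b).

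Groups followed the submitters' titles, and hens the study's methods. Levels, as log2(FPKM + 0.5), were compared by limma 3.58.1 (R 4.3.3; lmFit, then eBayes with trend and robust) with hens as blocks. The 12381 genes that reached 1 FPKM in at least 3 follicles were tested, p-values were adjusted by Benjamini-Hochberg, and the limit was 0.05. Fold changes on this scale understate the change of low genes. The deviations of both follicles of a hen from their group means correlated at 0.43, 0.18 and 0.53, and those of follicles of different hens at -0.46 to 0.18. With hens as blocks, the p-values set the mean difference within hens against its spread over the 3 hens. That spread is moderated towards that of other genes. Within hens, genes that reached 1 FPKM in either follicle were counted at a fold of 2. Intervals are exact and cover counting error only. The fit was also run on simulated data, but that outcome is not given here and no statement rests on it. Other steps ran in Python 3.11.15 (numpy 2.4.6, scipy 1.17.1, pandas 2.3.3, matplotlib 3.10.9).

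The members, lists and tests were chosen with earlier results of these data known. The genes named are the members, the Wnt list, the markers and, per member, the 3 named genes of highest r. A KEGG entry or description in the study's gene lists of hen 1 tied names to 296 gene numbers. Alternatives were other pseudocounts, scaling, scale, filters and moderation, no block, and each hen left out.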

Additional observations from a re-analysis of the deposited data

How the results depend on the processing

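The mean log2 ratios of *WNT4* and gene3236 kept their sign and stayed short of the limit under all 13 alternatives, as did those of *FZD1* and *WIF1* under the 8 that kept every hen. With 1 hen left out, in any of the 5 fits, the mean of *FZD1* ranged from 1.03 to 3.12 and that of *WIF1* from -0.10 to 0.61, and 0 to 466 genes passed. All of these extremes but 0 genes and the highest means came without hen 1. Without hen 1 and without the robust option 125 genes passed, and 21 passed without trend and robust. The adjusted p from limma over all alternatives ranged from 0.000118 to 0.999 for *FZD1* and from 0.739 to 0.999 for *WIF1*. Fits without hen 1 and without robust or trend were chosen after seeing the data. Dropping the hen block called 0 genes, and the highest adjusted p of each gene came from a fit with a hen left out. Within hens, the log2 ratio of *FZD1* in hen 1 moved from 5.08 to 7.27 with 0.1 FPKM added, to 4.13 with 1 FPKM added and to 6.26 on the normalized count. This is less than the SD over hens, which that ratio itself widens. The planned count tests with edgeR and DESeq2 were not run, since no counts per follicle were used. Depth limits gene3236, which rests on 7 fragments in T4.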
